A study of Mus musculus with 12 samples.

Results

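The genes described here encode the subunits of the mitochondrial respiratory chain and of ATP synthase. Members were all genes of the count table whose identifiers map in GENCODE M21 to protein-coding symbols of the Nduf (A, B, C, S and V series), Sdh, Uqcr, Cox4 to Cox8 and Atp5 families, together with the 13 protein-coding genes of mitochondrial DNA. This gave 97 genes of 33219 features, of which 84 are nuclear and 13 mitochondrial. The nuclear members comprise 37 genes of complex I (NADH dehydrogenase), 4 of complex II (succinate dehydrogenase), 8 of complex III (cytochrome bc1), 18 of complex IV (cytochrome c oxidase) and 17 of complex V (ATP synthase). The mitochondrial members comprise 7, 1, 3 and 2 genes of complexes I, III, IV and V. The rule itself used gene names and no measured value, but its families were chosen with earlier results of these data known.

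RNA was sequenced in bulk from MC38 cells, a mouse colon adenocarcinoma line, grown as subcutaneous tumors in young C57BL/6 mice. The cells were either wild type (WT) or carried A159V, a knock-in mutation at the endogenous locus of the small GTPase RAC1, and the mice received anti-PD1 antibody or IgG isotype control. This gave 4 groups of 3 samples, named here by genotype and antibody. A159V cells derive from edited clones; the study's text says that its data are from a single clone unless otherwise specified, and the labels name none, so a difference between genotypes cannot be told apart from a difference between clones. Tumor cells were isolated with a commercial kit before RNA extraction. The A159V mutation changes 1 codon, so the level of Rac1 mRNA checks no label; it was called in neither genotype comparison (log2 fold change -0.11 under IgG and -0.18 under anti-PD1).

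The respiratory chain is built from 2 genomes. Complexes I, III, IV and V combine nuclear-encoded subunits, made in the cytosol and imported, with a small core transcribed from mitochondrial DNA as long polycistronic RNAs and translated inside the organelle, whereas complex II is entirely nuclear. Complexes I to IV pass electrons from NADH and succinate to oxygen, and ATP synthase uses the resulting proton gradient. Nuclear subunit genes are known targets of NRF1, GABP (an ETS factor), the estrogen-related receptors and YY1, with PGC-1 coactivators.

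The 13 mitochondrial genes lie close together and partly overlap, which matters for how their reads are counted. In mm10, mt-Atp8 (chrM:7766-7969) shares 43 bases with mt-Atp6, mt-Nd4l (chrM:9877-10173) shares 7 bases with mt-Nd4, and mt-Nd5 and mt-Nd6 share 14 bases on opposite strands. The strand setting of the counting is not given in the sources used here, so the values of mt-Nd5 and mt-Nd6, and those of the overlapping pairs, are uncertain to that extent. The first of the sequences below is also the member with the lowest GC content on this genome (31.9%), and the second the one with the highest (41.1%), which is relevant to 1 library described next. Capitals mark the bases shared with the following gene, and both read 5′ to 3′ on the plus strand.
mt-Atp8: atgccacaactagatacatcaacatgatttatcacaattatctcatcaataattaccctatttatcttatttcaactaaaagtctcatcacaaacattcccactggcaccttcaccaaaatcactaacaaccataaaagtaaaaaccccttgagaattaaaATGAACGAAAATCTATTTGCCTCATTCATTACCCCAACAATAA
mt-Nd4l: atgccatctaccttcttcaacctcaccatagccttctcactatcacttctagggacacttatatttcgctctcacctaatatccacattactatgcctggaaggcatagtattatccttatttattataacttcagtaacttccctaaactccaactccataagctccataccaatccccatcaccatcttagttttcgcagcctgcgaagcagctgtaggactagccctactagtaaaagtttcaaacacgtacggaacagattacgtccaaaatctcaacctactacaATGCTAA

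Promoters were taken from RefSeq (GRCm38.p6) and matched for 68 of 84 nuclear members. Within 250 bases before and 50 after the start, GCGCATGCG or TGCGCATGC (NRF1) occurred on either strand in 13.2% of the members' promoters and in 2.34% of all 27025. CCGGAAG (ETS) occurred in 22.1% against 9.14%, AAGGTCA (estrogen-related receptor) in 11.8% against 4.65%, and AAGATGGC (YY1) in 13.2% against 2.87%. The 2 NRF1 words overlap each other at palindromic sites, and such matches describe the letters only. The stretches of 250 bases before the start are shown for Atp5k (chr5:108434400-108434649, minus strand) and Atp5l (chr9:44920743-44920992, minus strand), members whose 300-base windows each hold 3 of the 4 motifs. They are also shown for Sdha (chr13:74350241-74350490, minus strand) and Ndufs4 (chr13:114388095-114388344, minus strand), which differed in opposite directions between the genotypes. Capitals mark motif matches. Neither of the last pair has a match in the stretch shown, and Ndufs4 has a YY1 match in the 50 bases after the start.
Atp5k: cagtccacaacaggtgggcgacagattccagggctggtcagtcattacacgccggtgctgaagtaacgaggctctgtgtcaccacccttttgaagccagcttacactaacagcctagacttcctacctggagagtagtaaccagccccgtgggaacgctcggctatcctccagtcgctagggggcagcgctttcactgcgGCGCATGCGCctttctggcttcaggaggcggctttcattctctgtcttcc
Atp5l: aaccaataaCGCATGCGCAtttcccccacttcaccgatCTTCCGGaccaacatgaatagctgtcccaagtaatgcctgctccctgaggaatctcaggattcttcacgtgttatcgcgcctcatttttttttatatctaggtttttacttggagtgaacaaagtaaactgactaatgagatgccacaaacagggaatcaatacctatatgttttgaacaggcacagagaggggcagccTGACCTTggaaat
Sdha: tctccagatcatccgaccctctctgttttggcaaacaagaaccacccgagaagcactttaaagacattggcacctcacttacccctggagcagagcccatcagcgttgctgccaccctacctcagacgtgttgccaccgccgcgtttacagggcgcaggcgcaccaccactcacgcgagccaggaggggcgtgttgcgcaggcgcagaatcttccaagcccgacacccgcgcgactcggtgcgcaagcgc
Ndufs4: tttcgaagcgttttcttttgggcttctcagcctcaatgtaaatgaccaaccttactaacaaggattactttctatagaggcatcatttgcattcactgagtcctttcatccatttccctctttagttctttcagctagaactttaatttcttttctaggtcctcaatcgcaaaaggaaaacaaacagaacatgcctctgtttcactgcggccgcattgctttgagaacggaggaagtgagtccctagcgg

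Libraries held 14053582 to 21949942 gene counts, and 2 of the 12 stood apart in ways that touch these genes. In WT IgG replicate 1, log2 CPM (counts scaled to a common library size with TMM, edgeR's correction for composition) fell by 0.31 for each doubling of exon length relative to the mean of all samples, against slopes of -0.08 to 0.09 in the other 11. Nuclear members are short, with a median exon length of 1522.5 bases against 4380 for all nuclear protein-coding genes tested, and 78 of 80 were higher in WT IgG replicate 1 than in replicate 4, with a median ratio of 1.98. Replicate 2 lay between, with a median ratio of 1.27. In A159V IgG replicate 5, log2 CPM rose by 0.54 for every 10 points of GC content, against -0.14 to 0.03 in the others. The mitochondrial members have 31.9% to 41.1% GC, whereas the nuclear members have a median of 50.2%. All 13 were lower in this library than in the mean of A159V IgG replicates 1 and 2, at 1.17% (mt-Atp8) to 54.0% of it. The 7 tested nuclear members with as little GC stood at 0 to 105% of the other 2 samples, among them Uqcrb, a small complex III subunit, at 16.7%. Their part in the results below was not tested beyond the values given without these libraries and with the trends removed.

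**Figure D1:**
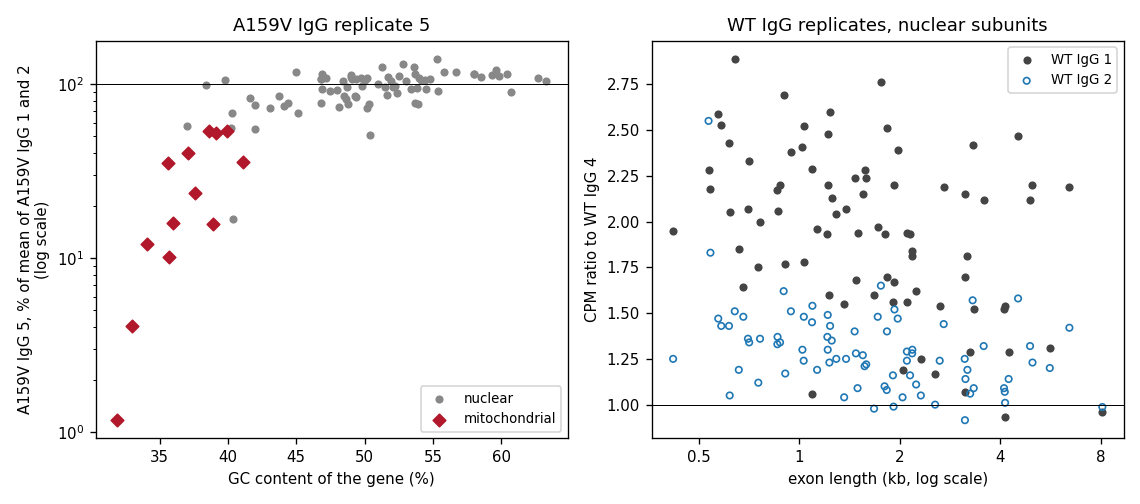
Left, CPM of each tested subunit gene in A159V IgG replicate 5 as a percent of the mean of A159V IgG replicates 1 and 2 (log scale) against the GC content of the gene; Cox7b2, at 0, is left out. All 13 mitochondrial genes (red diamonds) lie between 1.17% and 54.0%. Right, the ratio of CPM in WT IgG replicates 1 and 2 to replicate 4 against exon length (log scale) for 80 nuclear genes, with medians of 1.98 and 1.27.

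**Figure D2:**
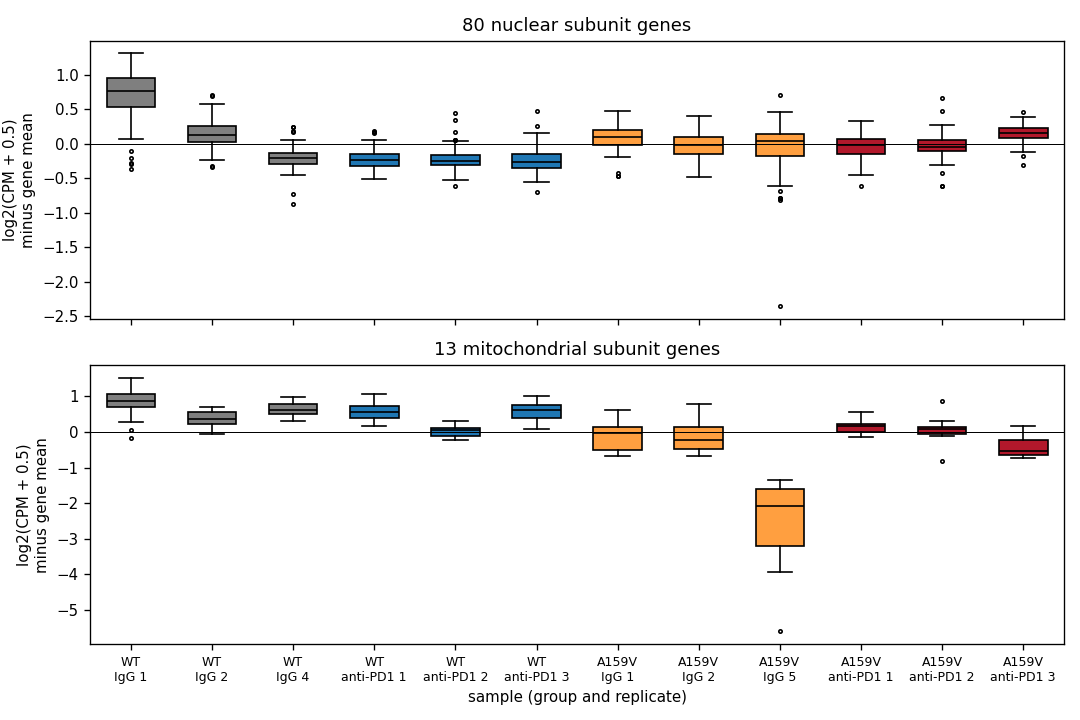
Distribution in each sample of log2(CPM + 0.5) minus the mean of the gene over the 12 samples, for the 80 tested nuclear and the 13 mitochondrial subunit genes; boxes span the quartiles, the line is the median, whiskers cover the remaining genes apart from outlying points. WT IgG 1 is the highest sample for the nuclear genes and A159V IgG 5 the lowest for the mitochondrial genes.

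Markers of other cells were unequal, and those of fibroblasts and endothelium were not low. Epithelial markers summed to 1.53 to 5.9 CPM in all 12 samples, with Epcam at 0 to 2 counts, so the label of an epithelial tumor rests on the source of the cells and not on these genes. Summed fibroblast and endothelial markers were 301 to 605 CPM in WT IgG, 433 to 747 in WT anti-PD1, 183 to 256 in A159V IgG and 178 to 226 in A159V anti-PD1. Leukocyte markers were 29.5 to 32.1, 44.4 to 72.9, 39.7 to 57.7 and 42.6 to 45.9 CPM in the same order, mostly Cd68 and Lyz2. Skeletal muscle markers reached 74 and 119 CPM in WT anti-PD1 replicates 2 and 3 and stayed at 1.17 to 17.2 elsewhere. In bulk samples, fewer cells of a type and less RNA per cell cannot be told apart.

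Of the 97 members, 93 had enough counts to be tested. Cox4i2, the hypoxia-induced isoform of COX4, had 1 to 11 counts per sample. Cox6b2 had 0 or 1, Cox8c had 0 throughout, and Cox8b, a subunit isoform of striated muscle, had counts only in WT anti-PD1 replicates 2 and 3, the samples with the highest muscle markers. Per kilobase of exon and averaged over the 12 samples, mitochondrial members ranged from 347 CPM per kb (mt-Nd3) to 8010 (mt-Co1, the catalytic subunit of complex IV), with a median of 1160. The 4 highest were mt-Co1, mt-Co2, mt-Atp6 and mt-Co3, and the 6 lowest were all NADH dehydrogenase subunits. Nuclear members ranged from 0.583 (Cox7b2) to 356 CPM per kb (Cox6a1), with a median of 51.4, so that Cox6a1 alone reached the level of mt-Nd3, the lowest mitochondrial gene. In complex I the level per length ran from 1.55 (Ndufb2) to 114 (Ndufa8), in complex II from 25.1 (Sdhc) to 77.4 (Sdhd), in complex III from 42.2 (Uqcrc1) to 179 (Uqcr10), and in complex V from 3.83 (Atp5s) to 301 (Atp5b, the catalytic beta subunit). Because length is the union of annotated exons, genes with long minor transcripts such as Ndufb2 (5628 bases) are set low on this scale.

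In the tissue isoform pairs of complex IV, the broadly expressed form was the higher one. Averaged over samples, Cox6a1 stood at 250 CPM and the muscle isoform Cox6a2 at 12.1, and Cox4i1 at 327 and Cox4i2 at 0.285. Cox8a was at 148 to 348 CPM, Cox6b1 at 96.5 to 245 and Cox7b at 89.9 to 195 in single samples, each with sister isoforms under 1 CPM. Cox7a2 and Cox7a2l were at 62.7 CPM or more in every sample, against 1.1 to 3.14 for the muscle form Cox7a1. Ndufa4, now assigned to complex IV, stood at 84.9 to 190 CPM and its hypoxia-induced paralog Ndufa4l2 at 1.88 to 5.26. The 3 genes of the ATP synthase c ring, which encode the same mature protein, were all expressed, Atp5g3 at 204 to 370 CPM, Atp5g1 at 133 to 316 and Atp5g2 at 112 to 223.

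Mitochondrial-encoded mRNA made up 4.60%, 3.94% and 4.15% of all gene counts in WT IgG (mean 4.23% ± 0.338 SD, n = 3), and 2.10%, 2.05% and 0.821% in A159V IgG (1.65% ± 0.722). Under anti-PD1 it was 3.78%, 2.81% and 3.77% in WT (3.46% ± 0.556) and 2.81%, 3.03% and 1.97% in A159V (2.60% ± 0.559). Every A159V IgG sample lay below every WT IgG sample, whereas the anti-PD1 groups overlapped. The nuclear members summed to 1.32%, 0.997% and 0.821% in WT IgG, 0.809%, 0.825% and 0.796% in WT anti-PD1, 0.963%, 0.916% and 0.962% in A159V IgG and 0.892%, 0.908% and 0.996% in A159V anti-PD1. The highest of these is WT IgG replicate 1. The ratio of mitochondrial to nuclear counts averaged 4.17 ± 0.802 in WT and 1.76 ± 0.782 in A159V samples under IgG, and 4.27 ± 0.748 and 2.82 ± 0.736 under anti-PD1. Leaving out WT IgG replicate 1 and A159V IgG replicate 5 changed the mitochondrial difference under IgG from -2.58 to -1.98 percentage points.

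The first comparison asked how the A159V mutation changed tumor cells under IgG. Lower in A159V cells were 4 mitochondrial mRNAs of complexes I, III and IV. Nuclear members called lower include Ndufs4 and Ndufb2, and those called higher were Sdha, Ndufs1, Uqcrc2 and Cox6a2. Calls required, over 14340 genes fitted with edgeR (quasi-likelihood), a Benjamini-Hochberg adjusted p below 0.05 together with a log2 fold change beyond 0.3 in either direction. Of 93 members, 4 were called higher and 14 lower, beside 15.6% and 12.4% of all genes tested. By genome, 4 of 13 mitochondrial members were lower and none higher, and 10 of 80 nuclear members were lower (12.5%, a share near that of all genes) and 4 higher (5%, under that of all genes). All 13 mitochondrial log2 fold changes were negative (median -1.05), and 60 of 80 nuclear ones (median -0.27, against 0.02 over all genes tested). By complex, the nuclear medians were -0.33 for complex I, 0.29 for II, -0.28 for III, -0.28 for IV and -0.24 for V. With WT IgG replicate 1 and A159V IgG replicate 5 left out these nuclear medians were -0.03, 0.38, -0.01, -0.08 and -0.04. Those of complexes I and III to V were then close to 0. With the length and GC trends removed they were -0.02, 0.30, -0.12, 0.08 and -0.23 for complexes I to V. Complex V thus kept its negative median in that setting and complex III part of it, whereas complex IV was positive. The mitochondrial medians were -1.04 for complex I and -1.42 for complex IV, with -1.76 for mt-Cytb alone in complex III.

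The 4 mitochondrial genes called were mt-Cytb, the only subunit of complex III made in the organelle, mt-Co1 and mt-Co2, the redox core of cytochrome c oxidase, and mt-Nd4, a proton-pumping subunit of complex I. mt-Cytb stood at 3070, 2330 and 2500 CPM in WT IgG and at 926, 916 and 481 CPM in A159V IgG replicates 1, 2 and 5 (log2 fold change -1.76 ± 0.26 SE, adjusted p = 0.00064). mt-Co1 stood at 18400, 16400 and 17100 CPM against 7650, 7600 and 4120 (-1.42 ± 0.25, adjusted p = 0.00162). The lowest WT sample was above the highest A159V sample for both genes. mt-Co2 stood at 9130, 6080 and 5110 CPM against 2770, 2640 and 1460 (-1.56 ± 0.29, adjusted p = 0.00212). mt-Nd4 stood at 1740, 1200 and 1660 CPM against 601, 684 and 227 (-1.60 ± 0.36, adjusted p = 0.00641). In each of the 4, replicate 5 was the lowest A159V sample, but the other 2 were also under the WT range.

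The remaining 9 mitochondrial genes were not called. Of these, mt-Nd6, a complex I subunit and the only member on the other strand of mitochondrial DNA, had a log2 fold change of -1.59 ± 0.56 (adjusted p = 0.0515), and mt-Nd4l, a small membrane subunit of complex I, -1.04 ± 0.38 (adjusted p = 0.0568). Values for mt-Nd1, mt-Nd2, mt-Nd3 and mt-Nd5, also subunits of complex I, were -0.80, -1.05, -0.94 and -0.78. Values for mt-Co3 of complex IV and mt-Atp6 of ATP synthase were -0.89 and -1.07. Groups did not overlap for 11 of 13 mitochondrial genes, all below, a background of 16.0% of all genes below and 19.8% above. The exceptions were mt-Nd3 and mt-Atp8. In mt-Atp8, a small ATP synthase subunit, the WT IgG samples stood at 218, 172 and 358 CPM and the A159V IgG samples at 274, 273 and 3.19, and the log2 fold change was -0.44 ± 0.86; without WT IgG replicate 1 and A159V IgG replicate 5 it was -0.04 ± 0.36. Setting that library aside, A159V IgG replicates 1 and 2 averaged 35.0% of the WT IgG mean for mt-Cytb, 39.9% for mt-Co2, 41.9% for mt-Nd4, 44.1% for mt-Co1, 47.0% for mt-Nd6 and 61.9% to 76.8% for 7 others, and 110% for mt-Atp8. The ratio thus differed between genes that are cut from shared precursor transcripts; whether these differences exceed the spread between samples was not tested.

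**Figure D3:**
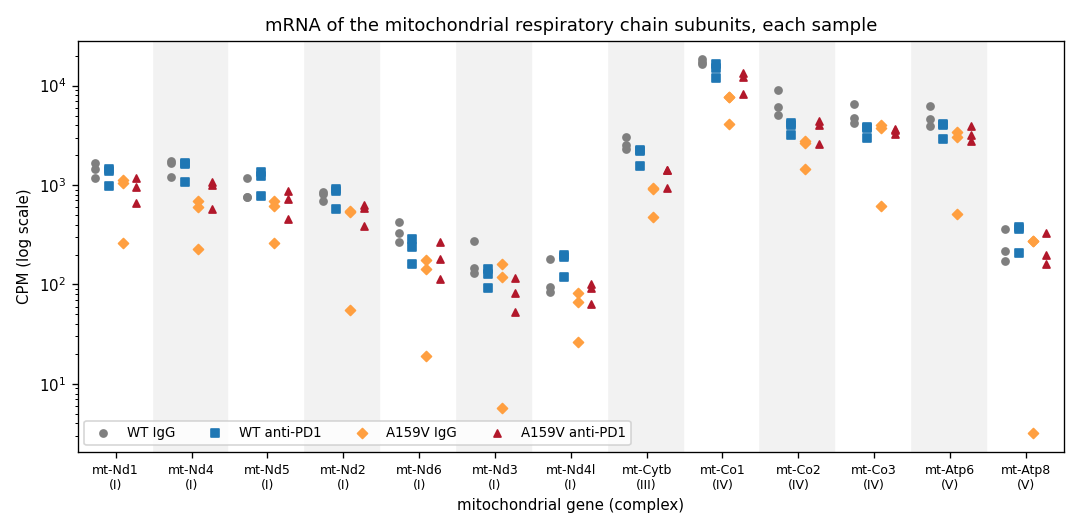
CPM (log scale) of the 13 mitochondrial subunit genes in each of the 12 samples, ordered by complex and by level, with 3 samples per group. The lowest A159V IgG point of each gene is replicate 5, which reaches 3.19 CPM for mt-Atp8. For mt-Cytb, mt-Co1, mt-Co2 and mt-Nd4 all A159V IgG points lie below all WT IgG points.

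With WT IgG replicate 1 and A159V IgG replicate 5 both left out, the same 4 mitochondrial genes remained called (mt-Cytb -1.48 ± 0.21, mt-Nd4 -1.24 ± 0.27, mt-Co1 -1.23 ± 0.20, mt-Co2 -1.14 ± 0.21) and mt-Nd6 and mt-Nd4l were added, with a mitochondrial median of -0.66. With the length and GC trends of every sample removed instead, the 4 were again called (mt-Cytb -1.29 ± 0.18, mt-Nd4 -1.12 ± 0.24, mt-Co1 -1.08 ± 0.19 and mt-Co2, which moved most, -0.87 ± 0.18) and the median was -0.50, and mt-Atp8 alone was then positive (0.40 ± 0.70).

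Among nuclear members under IgG, the 4 called higher were Ndufs1, the largest iron-sulfur subunit of complex I, Sdha, the flavoprotein that oxidizes succinate, Uqcrc2, a core protein of complex III, and Cox6a2, the muscle isoform of a complex IV subunit. Sdha (ENSMUSG00000021577) stood at 166, 190 and 178 CPM in WT IgG and 272, 267 and 229 in A159V IgG, an increase of 0.52 ± 0.12 on the log2 scale (adjusted p = 0.0075). Uqcrc2 (ENSMUSG00000030884) stood at 114, 97.3 and 97.1 CPM against 162, 161 and 126 (0.54 ± 0.13, adjusted p = 0.00966). Ndufs1 (ENSMUSG00000025968) stood at 81.6, 83.8 and 84.9 CPM against 134, 128 and 89.4 (0.49 ± 0.15, adjusted p = 0.0286). The groups were separate for all 3, with A159V IgG replicate 5 nearest to WT. Cox6a2 stood at 9.94, 8.99 and 6.07 CPM against 16.2, 13.2 and 19.1 (0.95 ± 0.24, adjusted p = 0.0127). Skeletal muscle markers summed to 4.59 to 17.2 CPM in WT IgG and 1.17 to 10 in A159V IgG, and their part in this call was not tested.

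The 10 nuclear members called lower were 5 of complex I (Ndufa2, Ndufa6, Ndufb2, Ndufs4 and Ndufv3), Uqcrh of complex III, Cox7b2 of complex IV, and Atp5e, Atp5k and Atp5l of ATP synthase. Ndufs4 (ENSMUSG00000021764), an accessory subunit of complex I mutated in Leigh syndrome, stood at 90.4, 59.6 and 41.3 CPM in WT IgG and 26.9, 28.5 and 20.3 in A159V IgG (-1.34 ± 0.23, adjusted p = 0.00166). Ndufb2 stood at 13.2, 12.1 and 10.1 CPM against 5.98, 6.72 and 5.42 (-0.96 ± 0.17, adjusted p = 0.00173). In both, every A159V sample was below every WT sample, although the WT samples spread widely for Ndufs4. Cox7b2, a testis isoform of a complex IV subunit, was near the limit of detection, with 36 counts summed over WT IgG and 2 over A159V IgG; the ratio of these sums, corrected for depth, was 20.0 (exact 95% interval 5.16 to 172, counting error only). Ndufa2, Ndufv3, Uqcrh, Atp5e, Atp5k and Atp5l overlapped between the groups. For Ndufa2, an accessory subunit, WT IgG stood at 117, 66.4 and 45.1 CPM and A159V IgG at 42.7, 43.1 and 47.1, so WT IgG replicate 4 lay within the A159V range. Markers of other cells moved in the same comparison: 3 of 7 fibroblast and endothelial markers were lower in A159V IgG, and of 8 leukocyte markers 3 were lower and Cd68 was higher. Their part in these differences was not tested.

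Without WT IgG replicate 1 and A159V IgG replicate 5, the median of the nuclear members was -0.01, and 10 were called higher and 9 lower. Of the 14 called at first, 13 remained and Uqcrh was lost. Added were 6 genes, all higher, namely Sdhc and Sdhd, the membrane anchors of complex II, Uqcrc1, a core protein of complex III, and Atp5b, Atp5c1 and Atp5f1 of ATP synthase. With both trends removed, 8 were higher and 10 lower, the median was -0.02, and 10 of the 14 remained, among them Sdha, Uqcrc2, Cox6a2, Ndufs4 and Ndufb2. Ndufs1, Ndufa2, Atp5k and Atp5l were then not called. Leaving out WT IgG replicate 4, whose length slope was 0.07, gave 42 called members instead of 18, and leaving out A159V IgG replicate 2 gave 11. These counts are not set beside the share of all genes called in the same settings.

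**Figure D4:**
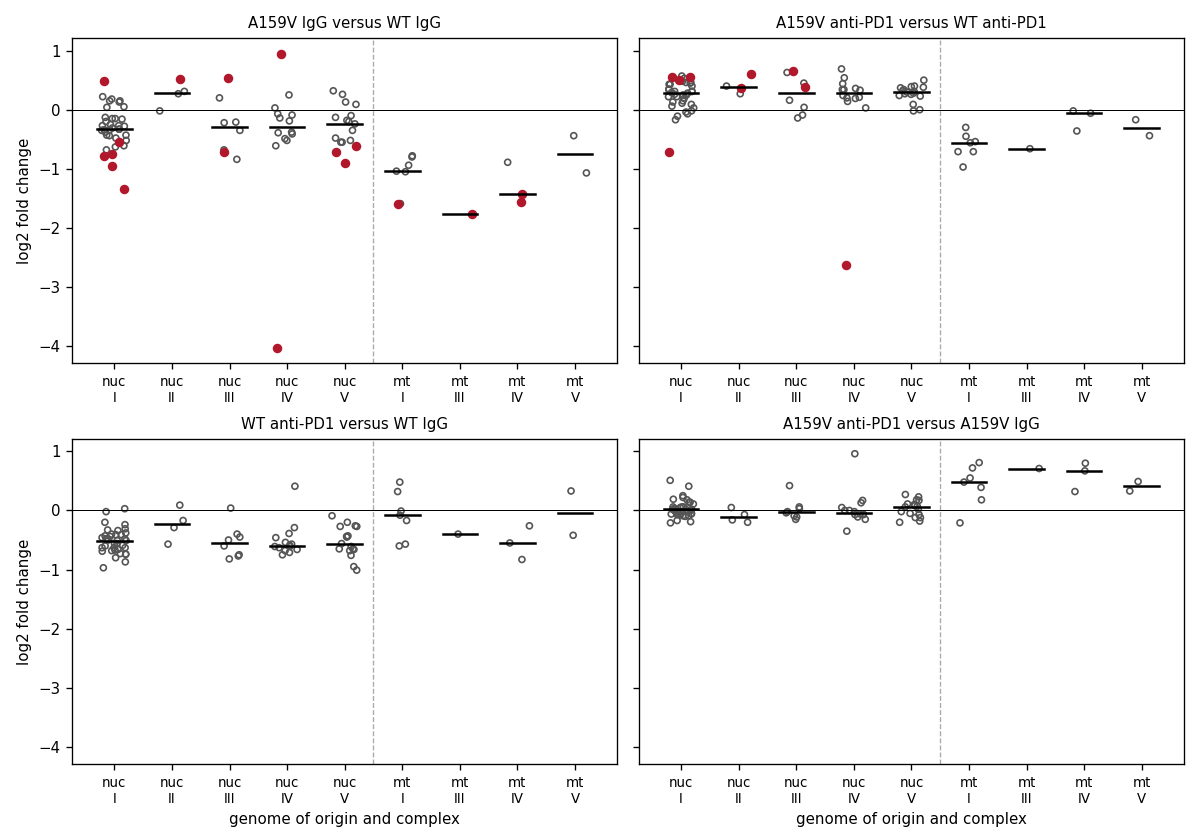
Log2 fold changes of the 93 tested members in 4 comparisons, by genome of origin (nuc, nuclear; mt, mitochondrial) and complex. Each point is a gene, red where called, and bars are medians. Under IgG the mitochondrial points lie below 0 in every complex, and nuclear complex II (0.29) is the only nuclear group with a median above 0, although that of complex IV is 0.08 once length and GC trends are removed.

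The second comparison asked the same of tumors under anti-PD1, with samples that the first did not use. Here 7 members were called higher and 2 lower, beside 11.2% and 10.2% of all genes tested. All were nuclear. Those higher were Ndufa10, Ndufs1 and Ndufv1 of complex I, Sdha and Sdhb of complex II, and both core proteins of complex III, Uqcrc1 and Uqcrc2, and those lower were Ndufs4 and Cox7b2. The median of the nuclear members was 0.30, against 0.06 for all genes, and 69 of 80 were positive. Medians were alike across complexes, at 0.28, 0.38, 0.27, 0.29 and 0.30 for complexes I to V. Per doubling of exon length, log2 CPM changed by 0.07, 0.08 and 0.09 in WT anti-PD1 and 0.03, -0.02 and -0.03 in A159V anti-PD1. With the length and GC trends removed, the nuclear median was 0.23. Those of complexes I to V were then 0.22, 0.30, 0.23, 0.20 and 0.22. A159V samples lay above every WT sample for 54 of 80 nuclear members and below for 2, where 32.6% and 23.5% of all genes did so. The shift was not particular to these members. A159V samples also lay entirely above for 70 of 76 mitochondrial and 45 of 93 cytosolic ribosomal protein genes. The same held for 18 of 18 tricarboxylic acid cycle and pyruvate dehydrogenase enzymes.

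Uqcrc1 (log2 fold change 0.66 ± 0.16, adjusted p = 0.0108) stood at 132, 118 and 121 CPM in WT anti-PD1 and 185, 189 and 215 in A159V anti-PD1. Sdhb, the iron-sulfur subunit of succinate dehydrogenase, stood at 65.6, 68.1 and 72.2 CPM against 98.4, 100 and 114 (0.60 ± 0.16, adjusted p = 0.0185). Ndufs1 stood at 86.3, 87.2 and 72.6 CPM against 121, 113 and 129 (0.56 ± 0.15, adjusted p = 0.0184). The groups were well apart, and WT samples differed little among themselves. Ndufv1, which binds NADH, was 1.47-fold and Ndufa10 1.41-fold higher. Sdha stood at 191, 189 and 189 CPM against 256, 218 and 257 (0.36 ± 0.12, adjusted p = 0.0462), and Uqcrc2 at 116, 104 and 98.4 against 135, 135 and 147 (0.39 ± 0.13, adjusted p = 0.0499). These last 2 were close to the threshold. Ndufs4 stood at 40.5, 46.3 and 43.3 CPM against 26.3, 23.5 and 29.3 (-0.72 ± 0.23, adjusted p = 0.0434). Cox7b2 had 25 counts in WT anti-PD1 and 4 in A159V anti-PD1, a ratio of 7.08 (exact 95% interval 2.44 to 28).

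Ndufs1, Sdha, Uqcrc2, Ndufs4 and Cox7b2 were thus called in both genotype comparisons, in the same direction each time, and these comparisons share no samples, although the fit estimated their spread together. The share of all genes called in both was not determined, so this overlap has no background beside it. Not all of these calls were stable: under anti-PD1, Sdha was not called in 19 of 26 alternatives, Uqcrc2 in 18, Ndufs4 in 10 and Cox7b2 in 9 of 24, and under IgG Ndufs1 was not called in 12 of 26. For Ndufs1 the 6 WT samples stood at 72.6 to 87.2 CPM and the 6 A159V samples at 89.4 to 134. For Ndufs4 they stood at 40.5 to 90.4 and 20.3 to 29.3 CPM. The genotypes were thus separate across both treatments for both genes. All 4 Sdh genes had positive values under anti-PD1 (Sdhc 0.27, Sdhd 0.40), and under IgG Sdhb alone was not positive (-0.02). Of the nuclear members, 49 had a negative value under IgG and a positive one under anti-PD1, 20 were positive in both and 10 negative in both. This tally changed with the 2 libraries that stood apart: with the trends removed, 30 were negative then positive, 35 positive in both and 13 negative in both, and without both libraries 26, 37 and 14. The same tally over all genes was not made.

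**Figure D5:**
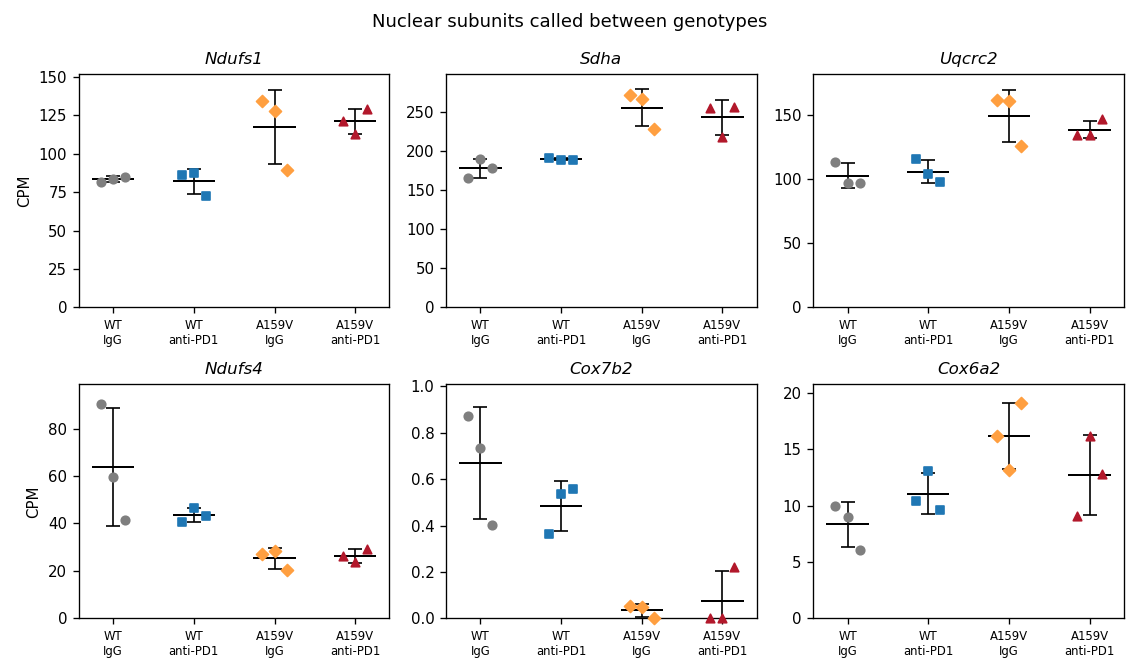
CPM in each sample of the 5 genes called in both genotype comparisons (Ndufs1, Sdha, Uqcrc2, Ndufs4, Cox7b2) and of Cox6a2, called under IgG only. Points are samples, horizontal bars the mean and error bars the SD of 3 samples; the axes start at 0. WT and A159V samples do not overlap within either treatment for the first 5; Cox6a2 overlaps under anti-PD1.

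No mitochondrial member was called between genotypes under anti-PD1, although all 13 values were negative (median -0.45). The unadjusted p was under 0.05 for mt-Nd4l (-0.97 ± 0.38, adjusted p = 0.0813 by edgeR) and mt-Cytb (-0.66 ± 0.26, adjusted p = 0.0833 by edgeR), the 2 genes whose groups did not overlap. mt-Cytb stood at 2180, 1560 and 2250 CPM in WT and 1430, 1420 and 937 in A159V. mt-Co2 and mt-Co3 were nearly level (-0.06 and -0.02). With both trends removed, mt-Cytb (-0.71 ± 0.18) and mt-Nd4 (-0.76 ± 0.23) were called. WT IgG replicate 1 and A159V IgG replicate 5 are not in this comparison but enter the shared fit. With both left out, 7 mitochondrial members were lower, and 24 nuclear members were higher and 2 lower. These counts are not set beside the share of all genes called in the same setting.

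The calls under anti-PD1 moved with the other libraries as well. Leaving out any 1 sample gave 1 to 18 called members instead of 9, not set beside the share of all genes called. The count rose to 18 without WT IgG replicate 1 and 17 without WT IgG replicate 4, fell to 1 without WT anti-PD1 replicate 3 or A159V anti-PD1 replicate 3 and to 2 without WT anti-PD1 replicate 1 or 2, and was 4 without WT IgG replicate 2 and 5 without A159V IgG replicate 1 or 2 or A159V anti-PD1 replicate 1 or 2. All 6 tested skeletal muscle markers, 5 of 8 leukocyte markers and 6 of 7 fibroblast and endothelial markers were lower in A159V anti-PD1. Ptprc, the pan-leukocyte marker CD45, averaged 10.2 CPM in WT anti-PD1 and 0.129 in A159V anti-PD1. With the leukocyte marker score as a covariate no member was called, and the nuclear median was 0.45. By edgeR without it, 21 members had an unadjusted p under 0.05, and DESeq2 called 9 and limma voom 8. No share of all genes is given beside these counts.

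The third comparison asked how anti-PD1 changed WT cells. No member was called, beside 0.495% of all genes higher and 0.132% lower. The unadjusted edgeR p was under 0.05 for 56 of 93, DESeq2 called 25, all lower, and limma voom called 0. The shares of all genes just given hold for adjusted edgeR calls, and none is given for these other counts. Values were negative for 76 of 80 nuclear members (median -0.55), and anti-PD1 samples lay entirely below IgG samples for 32 of 80 and above for none, beside 15.8% and 18.8% of all genes. The shift was not particular to these members. Values were negative for 76 of 76 mitochondrial ribosomal protein genes (median -0.53) and 86 of 93 cytosolic ones (median -0.58). Among the members, the largest were Atp5e (-1.01 ± 0.27, adjusted p = 0.076 by edgeR) and Ndufa2 (-0.97 ± 0.25, adjusted p = 0.0721 by edgeR). The IgG samples were themselves far apart. For Atp5k, a membrane subunit of ATP synthase, they stood at 129, 75.6 and 53.0 CPM, and the anti-PD1 samples at 42.6, 45.2 and 45.8. Without WT IgG replicate 1 the nuclear median was -0.23 and no member was called. Without WT IgG replicate 4 it was -0.74 and 57 members were called lower, a count not set beside the share of all genes called in that setting. The mitochondrial median was -0.26, with mt-Co2 (-0.83 ± 0.28, adjusted p = 0.102 by edgeR), mt-Co3 and mt-Cytb entirely below. With the length and GC trends removed, the mitochondrial median was -0.02 and the nuclear median -0.24. In the same comparison 3 of 8 leukocyte markers were called higher in WT anti-PD1 (median 1.66), and the 6 skeletal muscle markers, none called, had a median of 2.65. Their part in these values was not tested.

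The fourth comparison asked how anti-PD1 changed A159V cells. No member was called, as no gene was called in either direction (0% and 0% of 14340). An unadjusted edgeR p under 0.05 was seen for 5 members, and DESeq2 and limma voom called 0 members. The share of all genes with such an unadjusted p is not given. The median of the nuclear members was 0.00 and their quartiles were -0.07 and 0.07. Mitochondrial values were positive for 12 of 13 (median 0.49). mt-Co1 stood at 12100, 13400 and 8290 CPM under anti-PD1 against 7650, 7600 and 4120 under IgG (0.80 ± 0.25, adjusted p = 1 by edgeR) and mt-Cytb at 1430, 1420 and 937 against 926, 916 and 481 (0.71 ± 0.26, adjusted p = 1 by edgeR). These 2 did not overlap. Ndufb2 was the only nuclear member that did not overlap, at 7.30, 9.41 and 9.18 CPM against 5.98, 6.72 and 5.42 (0.51 ± 0.17, adjusted p = 1 by edgeR). Anti-PD1 samples lay above for 4.51% and below for 6.50% of all genes. Without A159V IgG replicate 5 the mitochondrial median was 0.10.

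Whether the response to anti-PD1 differed between genotypes was tested with the interaction of genotype and treatment. No member was called, where 0% of all genes were higher and 0.00697%, a single gene, lower. An unadjusted edgeR p under 0.05 was found for 27 of 93, the smallest adjusted p was 0.148, DESeq2 called 2 and limma voom 0. Shares of all genes are not given for these counts. The interaction was positive for 76 of 80 nuclear members (median 0.56) and for 12 of 13 mitochondrial members (median 0.87), of which mt-Co2 had 1.51 ± 0.40 (adjusted p = 0.173 by edgeR). Without the 2 libraries that stood apart the medians were 0.24 and 0.21, and with trends removed 0.23 and 0.32. Without WT IgG replicate 4, 25 members were called, a count not set beside the share of all genes called in that setting. With all 12 samples, the interaction medians of mitochondrial and cytosolic ribosomal protein genes were 0.51 and 0.53.

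The other genes of the pathway were examined from lists of related function. Their counts are read against all genes tested, of which 15.6% were called higher and 12.4% lower under IgG, and 11.2% and 10.2% under anti-PD1. The lists were not counted again without WT IgG replicate 1 and A159V IgG replicate 5, or with the length and GC trends removed. The part of these trends in the list counts was therefore not tested. Of 18 tricarboxylic acid cycle and pyruvate dehydrogenase enzymes, which supply NADH and succinate, 8 (44.4%) were called higher and 0 lower under IgG (median 0.32), and 11 (61.1%) and 0 under anti-PD1 (median 0.43). Ogdh, the oxoglutarate dehydrogenase, had 0.85 ± 0.12 under IgG (adjusted p = 0.000356) and 0.61 ± 0.11 under anti-PD1 (adjusted p = 0.00293), Dlat, a pyruvate dehydrogenase subunit, 0.71 and 0.69, and Mdh2, malate dehydrogenase, 0.53 and 0.76. None of the 18 was called for anti-PD1 in either genotype, at medians of -0.13 and -0.02.

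Of 25 factors that act on mitochondrial DNA and RNA, 6 (24%) were called higher and 1 (4%) lower under IgG, and 8 (32%) and 0 under anti-PD1, beside the shares of all genes just given. Lrpprc, which stabilizes mitochondrial mRNAs, had 0.60 ± 0.14 in both comparisons (adjusted p = 0.00779 and 0.00887). Fastkd1 (0.55 and 0.67), Tbrg4 (0.40 and 0.63), both of the FASTK family of mitochondrial RNA-binding proteins, Elac2, a tRNA 3′ processing enzyme (0.50 and 0.59), and Grsf1, an RNA granule protein (0.56 and 0.54), were called in both. Polg, the mitochondrial DNA polymerase, was higher under IgG (0.64 ± 0.16, adjusted p = 0.0103), and Polg2, its accessory subunit, was lower (-0.91 ± 0.16, adjusted p = 0.00193).

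Regulators of nuclear respiratory genes were called higher for 7 of 14 tested (50%) under IgG, where 15.6% of all genes were, and for 4 of 14 (28.6%) under anti-PD1, where 11.2% were, with 0 lower in either. Ppargc1b, the coactivator PGC-1β, had 1.11 ± 0.16 (adjusted p = 0.000568) and 0.98 ± 0.16 (adjusted p = 0.00128). Tfeb, a regulator of lysosomal genes, had 0.84 in both, Esrra, the estrogen-related receptor alpha, 0.58 and 0.73, and Ppard, a fatty acid-sensing receptor, 0.70 and 0.45. Ppargc1a (PGC-1α) was called under IgG only (1.90 ± 0.45, adjusted p = 0.00839), and the difference between treatments was not called. Of 21 import components, 1 was called higher under IgG (4.76%, under the share of all genes) and 6 under anti-PD1 (28.6%), with 0 lower, including Hspa9, the matrix import motor (0.63 and 0.60), and Tomm40, the outer membrane channel (0.76 under anti-PD1).

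Of 76 mitochondrial ribosomal proteins, 3 were higher and 2 lower under IgG (3.95% and 2.63%, against 15.6% and 12.4% of all genes; median -0.11), and 15 and 0 under anti-PD1 (19.7% and 0%, against 11.2% and 10.2%; median 0.42). Of 93 cytosolic ribosomal proteins, 5 were higher and 11 lower under IgG (5.38% and 11.8%, median -0.31). Under anti-PD1, 5 were higher and 0 lower (5.38% and 0%, median 0.21). The assembly factor lists are small, and their counts are given beside the same shares of all genes. For complex I, 1 of 15 was higher and 2 lower under IgG, led by Ndufaf2 (-1.32 ± 0.26, adjusted p = 0.00309), and 3 and 0 under anti-PD1, led by Ecsit (0.74 ± 0.17, adjusted p = 0.00811). For complex IV, 4 of 20 were higher and 3 lower under IgG, and 3 and 0 under anti-PD1. Cox10, which makes heme O for mt-Co1, had 0.59 ± 0.12 (adjusted p = 0.003) and 0.73 ± 0.12 (adjusted p = 0.00102), and Cox17, a copper chaperone, -1.01 ± 0.26 under IgG (adjusted p = 0.0141). For complex III, Uqcc1 was higher in both (0.45 and 0.54), and Uqcc3 (-0.80) and Uqcc2 (-0.62) were lower under IgG. None of 4 complex II factors was called in either comparison, and of 5 ATP synthase factors only Fmc1 was (-0.82 under IgG). Among 17 electron carriers and subunits outside the rule, Coq8a, a kinase-like protein of coenzyme Q synthesis, was lower in both (-1.31 ± 0.20 and -1.51 ± 0.21, adjusted p = 0.000884 and 0.000443). Cyc1, cytochrome c1 of complex III, was higher under anti-PD1 (0.51 ± 0.14, adjusted p = 0.0211).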

How the data were processed

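RNA of tumor cells from 12 tumors was sequenced by the authors as paired reads, aligned to mm10 with STAR and counted per gene with summarizeOverlaps. They deposited raw counts, 1 column per sample, without normalization; counting mode, strand setting and tool versions are not given in the sources used here. Groups were read from the sample labels. Nothing there says how replicates relate beyond separate mice, and p-values measure the spread between these samples. Of 33219 features, 31980 matched GENCODE M21 (GRCm38), which gave symbols, positions, exon lengths and, from its longest transcripts, GC content. A gene may hold reads of a near-identical pseudogene or of an overlapping gene.

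Counts were filtered with filterByExpr (14340 genes), scaled by TMM and fitted over all 12 samples with edgeR 4.0.16 (glmQLFit, 8 residual degrees of freedom; R 4.3.3), with 5 contrasts and p-values adjusted by Benjamini-Hochberg over all genes. Called genes had an adjusted p below 0.05 and changed by more than 0.3 on the log2 scale. Values are TMM-scaled CPM. The exact intervals of count ratios cover counting error only, since counts were summed over the samples of a group. Reads carried no molecular identifiers. DESeq2 1.42.0, limma voom 3.58.1, other scalings and filters, a leukocyte score, the length trend removed, each sample left out, and a replicate block were tried; removal of the GC trend, of both trends and the joint removal of 2 libraries were tried after seeing the data. The trends were fitted per sample by lowess (span 0.3). Shares of all genes called are given only for the adjusted edgeR calls from all 12 samples without these changes. The test was checked on simulated data.

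Named genes were the 13 mitochondrial genes, the Sdh genes, called members, the highest and lowest nuclear level per length in each complex, isoform pairs, untested members, up to 4 called genes per related list, and Rac1; a few others were named after their values were seen. The members and lists were chosen with earlier results of these data known.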

Additional observations from a re-analysis of the deposited data

How the results depend on the processing

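Under IgG, 18 members were called between genotypes; the count was 28 with no filter on low counts, 31 with DESeq2, 6 with only the groups compared in the fit, 46 with the replicate block, 6 with a log2 fold change above 1, and 11 to 42 with 1 sample left out. Under anti-PD1 the count of 9 became 4 with upper-quartile scaling, 5 with at least 10 counts in every sample, 29 with only the groups compared, 0 with the leukocyte score, 29 with the replicate block, 1 with a log2 fold change above 1, 16 with both trends removed, 33 without both libraries and 1 to 18 with 1 sample left out. For anti-PD1 in WT the count of 0 became 14 with no filter, 25 with DESeq2, 72 with the replicate block, 2 with the GC trend removed, 1 with both trends removed and 0 to 57 with 1 sample left out. For the interaction it became 2 with DESeq2, 39 with the replicate block and 0 to 25 with 1 sample left out. The causes were not tested, and these counts are not set beside the share of all genes called in the same setting. The nuclear median between genotypes under anti-PD1 was 0.20 with upper-quartile scaling and 0.45 with the leukocyte score, against 0.30, and the mitochondrial share difference under IgG was -1.98 points without both libraries. No called value changed sign.

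The replicate numbers do not pair the samples: deviations of same-numbered samples correlated at -0.18 to 0.20 over genes, no label ties a number to a litter or day, and WT IgG replicate 4 and A159V IgG replicate 5 have no partner. Under IgG, mt-Cytb, mt-Co1, mt-Co2, mt-Nd4, Ndufs4 and Ndufb2 kept their call under the 26 alternatives tried for single genes, and Cox7b2 under 24 of 24, whereas Atp5k, Atp5l and Uqcrh lost it under 14 of 26 and Ndufs1 and Ndufv3 under 12. Under anti-PD1, Sdha lost it under 19 of 26, Uqcrc2 under 18, Ndufs4 under 10 and Cox7b2 under 9 of 24. Depth limited Cox7b2 and the 4 untested isoforms.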
